A study of Mus musculus with 2 samples.

Results

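The miRNA genes of striated muscle, often called myomiRs, were followed in small RNA libraries from mouse heart. The members were taken by symbol from GENCODE M21 and made up 10 of the 2202 miRNA genes counted. They form 2 kinds of locus: 3 genes inside introns of myosin heavy chain genes (Mir208a, Mir208b and Mir499) and 7 genes of the miR-1, miR-133 and miR-206 families (Mir1a-1, Mir1a-2, Mir1b, Mir133a-1, Mir133a-2, Mir133b and Mir206). The series holds 1 group of 2 libraries, replicates 1 and 2, each from total RNA of the heart of a female B6CASTF1/J mouse, an F1 hybrid, at an age of 36 days (the age field and source name; a description of the sample writes months after the same number). The labels name no treatment and no control group. The labels number the animals separately but give both the same donor code, and the spread between the libraries holds animal and library differences together.

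A miRNA is cut as a short strand from a folded hairpin transcript, and it binds messenger RNAs mainly through its seed, bases 2 to 8 from its 5′ end. The miRNAs of the myosin introns are made together with the myosin messenger RNA: miR-208a comes with Myh6, the alpha heavy chain of the adult mouse heart, miR-208b with Myh7, the beta heavy chain of the fetal heart and of slow skeletal muscle, and miR-499 with Myh7b. In muscle they are known for their part in the choice of myosin isoform and in the response of the heart to stress. Genes of miR-1 and miR-133 lie side by side, are transcribed as pairs in heart and skeletal muscle, and are known for steering muscle growth and differentiation; the related pair miR-206 and miR-133b is typical of skeletal muscle.

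The mature sequences are shown because they set which members are relatives and which can be told apart by their reads. Seeds are in capitals and all other bases in lower case, written 5′ to 3′ from RefSeq on GRCm38.p6, where 6 of the 10 members had an entry.
miR-208a-3p: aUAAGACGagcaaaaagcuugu
miR-208b-3p: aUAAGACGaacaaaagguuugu
miR-499-5p: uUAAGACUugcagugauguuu
miR-206-3p: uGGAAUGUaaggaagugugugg
miR-133b-3p: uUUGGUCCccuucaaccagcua
miR-1a-1-5p: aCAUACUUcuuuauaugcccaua

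The 2 miR-208 strands carried the same seed, UAAGACG, which no other mature sequence of the table had. The miR-499-5p seed, UAAGACU, shared its first 6 bases with them and differed at the last. Counted from 1 at the 5′ end, miR-208a-3p and miR-208b-3p differed at 3 of 22 positions (G10A, A16G and C18U, with the miR-208a base first), so that 9 bases were the longest run in common. Against miR-499-5p, miR-208a-3p was the same at 12 of 21 positions, with G8U as the seed difference. The seed of miR-206-3p, GGAAUGU, was found in 2 other mature sequences of the table, miR-6349 and miR-6382, and that of the miR-208 5p strands in miR-6415. These sequences included only the 5p strand of Mir1a-1 and no strand of Mir1a-2, Mir1b, Mir133a-1 and Mir133a-2. Seeds shared with the missing strands could therefore not be seen. Mir6349, Mir6382 and Mir6415 had 0 counts in both libraries, where up to 3 counts cannot be told from 0.

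The hairpins of the 3 myosin-intron genes are given with both mature strands in capitals, since reads from either strand enter the same gene count. The files do not split a count into its 5p and 3p strand.
Mir208a: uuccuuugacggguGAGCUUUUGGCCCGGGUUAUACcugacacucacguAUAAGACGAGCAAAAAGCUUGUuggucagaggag
Mir208b: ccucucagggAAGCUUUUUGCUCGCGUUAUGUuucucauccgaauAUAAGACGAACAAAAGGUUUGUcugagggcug
Mir499: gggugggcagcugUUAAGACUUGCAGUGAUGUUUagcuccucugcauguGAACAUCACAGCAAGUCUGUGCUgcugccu

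The myosin-intron genes lie on their host's strand and in an intron of every annotated host transcript (mm10, the build of the files; introns counted in the principal transcript). Mir208a (ENSMUSG00000065432.1) lies at chr14:54949060-54949142 on the minus strand, in intron 29 of Myh6. Mir208b (ENSMUSG00000077928.1) lies 26.6 kb away at chr14:54975700-54975776, also on the minus strand, in intron 31 of Myh7. Mir499 (ENSMUSG00000076312.1) lies at chr2:155622880-155622958 on the plus strand, in intron 19 of Myh7b. Among 14 protein-coding Myh genes, only Myh3, an embryonic skeletal myosin, held another miRNA gene, Mir6923, and its count was 0 in both libraries.

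The libraries held 2074961 sense-strand counts over miRNA genes in replicate 1 and 1766135 in replicate 2, which served as library sizes. Levels are in CPM, a gene's share of these counts times 1e+06. One read was worth 0.482 CPM and 0.566 CPM, and a count of 0 allows up to 3 counts, 1.45 CPM and 1.70 CPM. Intervals are exact at the 95% level for the reads counted and cover counting error only, not differences between animals or libraries. PCR copies of a molecule carry no identifier here and are counted again, which the intervals do not allow for. Reads mapping to several places were counted at no gene and made up 42.0% and 39.8% of all reads. Of the marker genes of other cells, those of red blood cells (3 of 3 detected) gave a sum of 45889 and 7589 CPM in replicates 1 and 2, of endothelium (3 of 4) to 99059 and 66887 CPM, of smooth muscle (2 of 3) to 43118 and 44232 CPM, of fibroblasts (4 of 5) to 2599 and 3689 CPM, and of leukocytes (5 of 6) to 5448 and 6481 CPM. The liver genes (2 of 2) summed to 87.7 and 72.5 CPM and the epithelial genes (7 of 7) to 351 and 714 CPM. Of the neuronal genes 0 of 6 were detected, and all but Mir9-3 had no count. In whole tissue, fewer cells of a type and less RNA per cell cannot be told apart.

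Nearly all counts of the members came from Mir208a and Mir499. Together the 3 myosin-intron genes had 12747 of 12895 member counts in replicate 1 (98.9%, interval 98.7 to 99.0) and 15367 of 15474 in replicate 2 (99.3%, 99.2 to 99.4). Mir208a had 7904 and 8952 counts, or 3809 CPM (3726 to 3894) in replicate 1 and 5069 CPM (4964 to 5175) in replicate 2. Mir499 had 4593 and 6138 counts, or 2214 CPM (2150 to 2278) and 3475 CPM (3389 to 3563). Replicate 2 was the higher library for both genes. The presence of Mir208a, made with the cardiac alpha myosin, goes with the label heart. Of the other genes taken as cardiac muscle markers, Mir208b, Mir499, Mir1a-1 and Mir1a-2 were detected, and Mir133a-1 and Mir133a-2 were not (below). The sum of the 3 myosin-intron genes was 7422 ± 1809 CPM (SD, n = 2), against 66.0 ± 7.60 CPM for the 7 genes of the other families. Of those 7 hairpins, 6 hold sequence that recurs in other hairpins (below). Their sum covers only reads that could be placed at 1 gene.

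Mir208b, the fetal partner of Mir208a, was counted at a low level in both libraries. It had 250 counts in replicate 1 and 277 in replicate 2, which is 120 CPM (106 to 136) and 157 CPM (139 to 176). As a share of the 3 myosin-intron genes it held 1.96% (1.73 to 2.22) in replicate 1 and 1.80% (1.60 to 2.03) in replicate 2. Mir208a held 62.0% (61.2 to 62.9) and 58.3% (57.5 to 59.0) of that sum, and Mir499 36.0% (35.2 to 36.9) and 39.9% (39.2 to 40.7). The intervals of the 2 libraries overlapped for Mir208b and did not for Mir208a and Mir499.

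**Figure D1:**
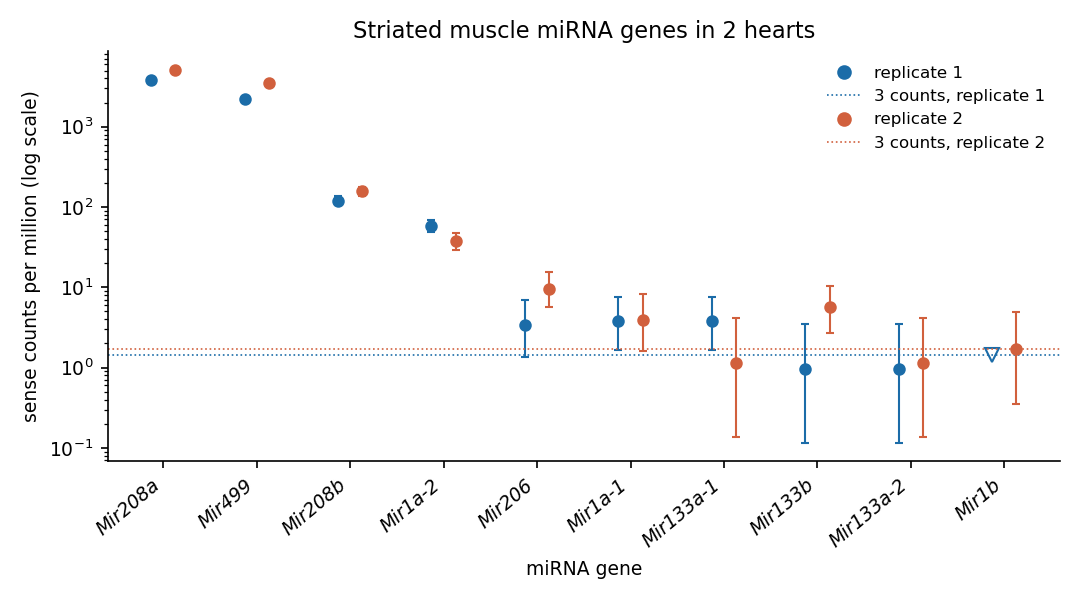
Sense-strand CPM (log axis) of the 10 members in replicates 1 and 2, as points with exact 95% counting intervals; dotted lines mark 3 counts in each library and the open triangle a count of 0. Mir208a and Mir499 lie at 2214 CPM or higher in both libraries, while Mir133a-2 and Mir1b lie at or below the level of 3 counts.

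The gene pair Mir1a-1 and Mir133a-2 lies on the plus strand of chromosome 2, at positions 180389048 to 180389124 and 180398379 to 180398482, with 9.25 kb between them and no other annotated gene over either. Its homologous pair lies on the minus strand of chromosome 18, Mir133a-1 at 10782909 to 10782976 and Mir1a-2 at 10785481 to 10785552. Both lie in introns of their host transcript, Mir133a-1hg, and face intron 12 of Mib1, a gene of the opposite strand. Mir1b (10785446 to 10785567, plus strand) covers the whole of Mir1a-2 from the other strand. The third pair, Mir206 (20679010 to 20679082) and Mir133b (20682769 to 20682887), lies on the plus strand of chromosome 1, 3.69 kb apart. Mir133b falls in an exon of both transcripts of the lincRNA Gm28653, and Mir206 in an exon of one and an intron of the other.

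Of the miR-1 genes, which in striated muscle target regulators of growth, Mir1a-2 had most counts, with 121 in replicate 1 and 66 in replicate 2. These are 58.3 CPM (48.4 to 69.7) and 37.4 CPM (28.9 to 47.5), so that replicate 1 was higher and the intervals did not overlap. Mir1a-1 had 8 and 7 counts, with widely overlapping intervals of 1.66 to 7.60 CPM and 1.59 to 8.17 CPM. Mir1b had 0 and 3 counts. On the strand opposite to Mir1b lay 121 and 66 reads, the sense counts of Mir1a-2, and without regard to strand both genes had 0 counts.

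The miR-133 genes, known for holding back muscle hypertrophy, had few counts in both libraries. Mir133a-1 had 8 counts in replicate 1 and 2 in replicate 2, Mir133a-2 had 2 in each and Mir133b had 2 and 10. None of the 3 reached 2 CPM in both libraries. Mir206, a marker of skeletal muscle, had 7 counts (3.37 CPM, 1.36 to 6.95) in replicate 1 and 17 (9.63 CPM, 5.61 to 15.4) in replicate 2, and those intervals overlapped. Mir206 and Mir133b together, the 2 markers of skeletal muscle, reached 4.34 CPM in replicate 1 and 15.3 CPM in replicate 2. With 2 CPM in each library as the limit of detection, 6 of the 10 members were detected (Mir208a, Mir208b, Mir499, Mir1a-1, Mir1a-2 and Mir206), beside 335 of all 2202 miRNA genes.

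The counts must be read beside the sequence that the members share. A run of 18 nucleotides (nt) that recurs in another annotated hairpin, at another place and on either strand, cannot place a read that holds nothing else. The hairpins of Mir208a, Mir208b, Mir499 and Mir206 held no such run. All 4 were detected, with 12754 counts together in replicate 1 and 15384 in replicate 2. The other 6 members each held one. Of these, 2 were detected, and the 6 had 141 and 90 counts together. Over all 2202 genes, 23.4% of the 1067 hairpins without a recurring run and 7.49% of the 1135 with one were detected. The genome itself was not searched, so runs that recur outside the annotated hairpins are not in these numbers.

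Among the 6 members with a recurring run, the longest shared runs followed the families. Mir1a-1 shared 28 nt with Mir1a-2 and with Mir1b, and the same run spanned positions 45 to 72 of its hairpin, outside its 5p strand at positions 10 to 32. None of the 6 runs of 18 nt within miR-1a-1-5p recurred. Mir133a-1 and Mir133a-2 shared 31 nt, and 41.2% and 24.1% of their runs recurred. Mir133b shared 21 nt with both, at positions 66 to 86, where miR-133b-3p spans 66 to 87. Of the 5 runs within miR-133b-3p, printed above, 4 therefore recurred in the Mir133a hairpins, and only reads that reach its last base differ from them. The counts of Mir1a, Mir1b, Mir133a and Mir133b genes thus cover only reads that could be placed at 1 gene, and do not give the level of a mature strand that lies in a shared run. Mir206, whose strands held no recurring run, is the only member of the miR-1, miR-133 and miR-206 families without a recurring run among these hairpins.

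**Figure D2:**
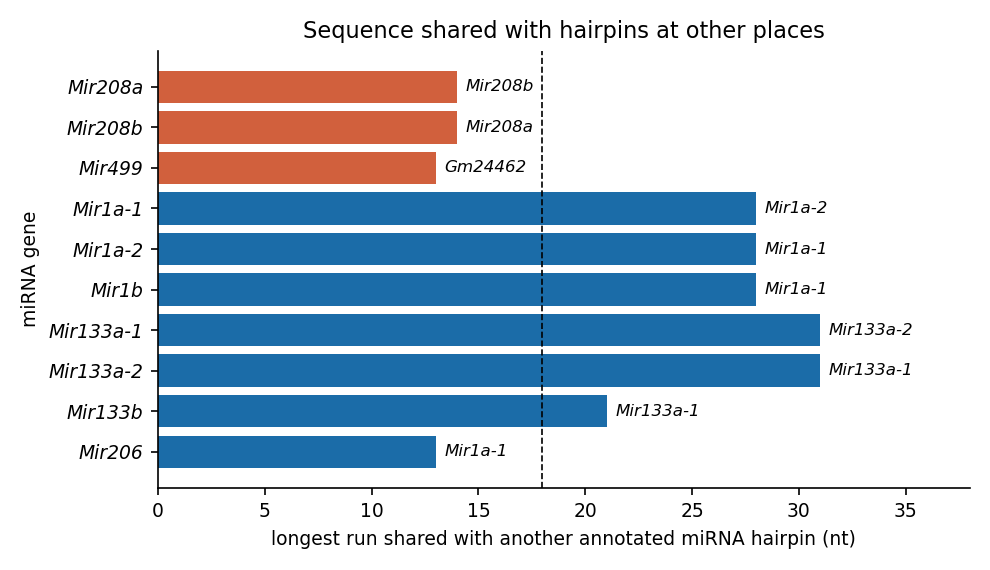
Longest run of bases (nt) that each member's hairpin shares with another annotated miRNA hairpin at a different place, named at the end of its bar; the dashed line marks 18 nt and orange bars are the myosin-intron genes. Mir208a, Mir208b, Mir499 and Mir206 stay at 13 or 14 nt, and the other 6 members reach 21 to 31 nt.

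Levels of different genes were compared per 100 nt of annotated length, which ranges from 68 to 122 nt over the members. On that scale Mir208a had 5348 ± 1073 CPM per 100 nt (SD, n = 2), Mir499 3601 ± 1129, Mir208b 180 ± 33.4 and Mir1a-2 66.4 ± 20.6. These 4 kept their order without overlap of the libraries: the lower value of each gene lay above the higher value of the next. After them came Mir206 with 8.90 ± 6.06, Mir1a-1 with 5.08 ± 0.0991, Mir133a-1 with 3.67 ± 2.83, Mir133b with 2.78 ± 2.79, Mir133a-2 with 1.01 ± 0.115 and Mir1b with 0.696 ± 0.985 CPM per 100 nt. From Mir206 down, each gene's range over the 2 libraries overlapped that of the next, so neighbours among these 6 were not resolved. Farther apart, Mir206, Mir1a-1 and Mir133a-1 lay above Mir133a-2 and Mir1b, and Mir1a-1 above Mir133b, without overlap of the libraries. Part of this came from the division by length. As CPM without length, Mir133a-1 was not set apart from Mir133a-2 or Mir1b, nor Mir1a-1 from Mir133b. Comparing ranges in this way leaves out counting error, and in replicate 2 Mir133a-1 and Mir133a-2 had 2 counts each and Mir1b 3. For none of these pairs did the exact interval of the ratio per length exclude equality in both libraries. Pairs with Mir1b, without a count in replicate 1, had an interval in replicate 2 alone.

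Ratios between members within a library need no scaling between libraries. Per length, Mir208a stood 29.3 times above Mir208b in replicate 1, with an exact interval of 25.9 to 33.4, and 30.0 times in replicate 2, with one of 26.6 to 33.9. Mir208a stood 1.64 times above Mir499 in replicate 1 (interval 1.58 to 1.70), against 1.39 times (1.34 to 1.43) in replicate 2. Mir208a stood 993 times above Mir206 (482 to 2471) and 463 times (289 to 795). The intervals of the 2 libraries overlapped for the ratio of the 2 miR-208 genes and for that over Mir206, and did not for Mir208a over Mir499.

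Among all miRNA genes, Mir208a ranked 29 by mean CPM, Mir499 37, Mir208b 127, Mir1a-2 175 and Mir206 289. The remaining members ranked from 329 (Mir1a-1) to 441 (Mir1b), and 1574 of the 2202 genes had no count in either library. The neighbours in that order, compared here as CPM without length, were Mir322 (4454 ± 905 CPM) above and Mir29a (3724 ± 686 CPM) below Mir208a (4439 ± 891 CPM). Mir155 (2903 ± 406 CPM) stood above and Mir423 (2752 ± 414 CPM) below Mir499 (2844 ± 892 CPM). Around Mir208b (139 ± 25.7 CPM) they were Mir1843a (141 ± 20.1 CPM) above and Mir24-1 (112 CPM in replicate 1 and 153 CPM in replicate 2) below. The range of each of these 6 neighbours overlapped that of the member beside it, so these places in the order are not distinguished. With 2 samples, likeness of pattern can be given only as closeness in level.

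**Figure D3:**
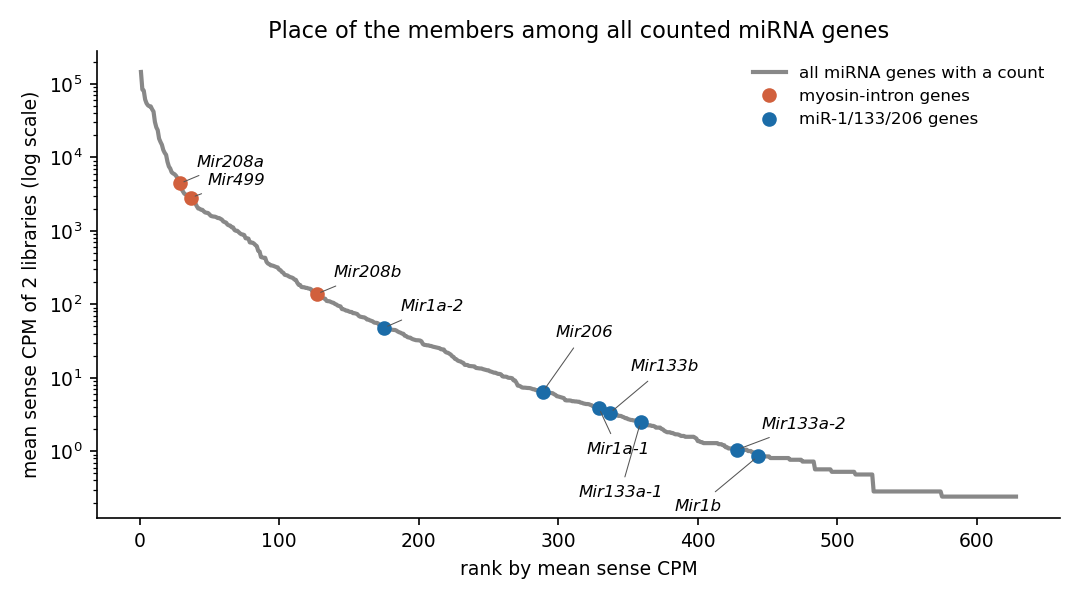
Mean sense-strand CPM of the 2 libraries (log axis) against rank for every miRNA gene with a count (grey line), with the members as points, orange for myosin-intron genes and blue for miR-1, miR-133 and miR-206 genes. Mir208a and Mir499 rank 29 and 37, Mir208b and Mir1a-2 127 and 175, and the other members 289 or lower in the order.

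The libraries were then compared gene by gene. For every gene whose counts in the libraries added up to 10 or more, an exact binomial test asked how these counts divided, given library sizes scaled by TMM (trimmed means of the log ratios), with Benjamini-Hochberg adjustment over 359 tested genes. This compares 2 libraries beyond counting error, not conditions. Of all tested genes 44.3% passed the threshold of 0.05 (20.1% higher in replicate 2 and 24.2% higher in replicate 1), and of the members 4 of 8 tested, 3 higher in replicate 2 and 1 in replicate 1. That share is close to the background. Mir1b and Mir133a-2 had too few counts to be tested.

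Both abundant myosin-intron genes were higher in replicate 2. Mir208a differed 1.18-fold (1.15 to 1.22; adjusted p = 7.46e-27, exact binomial test) and Mir499 1.40-fold (1.34 to 1.45; adjusted p = 2.70e-65, exact binomial test). Mir208b had a similar ratio of 1.16, but its interval of 0.972 to 1.38 included equality (adjusted p = 0.182, exact binomial test). The difference of Mir208a was smaller and that of Mir499 larger than the median gene's: among the 70 tested genes whose mean level reached 1000 CPM, 57.1% had an absolute log2 ratio at least as large as that of Mir208a and 40% one as large as that of Mir499. In CPM, the summed markers of red blood cells, endothelium and liver were lower in replicate 2, as given above. Those of epithelium, fibroblasts and leukocytes were higher, and those of smooth muscle nearly equal. These sums use library size alone, whereas the ratios of the members use TMM sizes, which lower them (below). The part of these cells in the ratios was not tested. Within the lists, the test called 3 leukocyte genes higher in replicate 2 and 2 higher in replicate 1, and 1 fibroblast gene in each direction, while the 4 epithelial genes called were all higher in replicate 2. All 3 red blood cell markers were higher in replicate 1. With TMM computed without the red blood cell markers the log2 ratio was 0.24 for Mir208a and 0.48 for Mir499, as with them. TMM trims extreme log ratios and only these 3 genes were left out, so the values could hardly move. This setting therefore does not test the part of blood in the ratios.

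In the other families, the level of Mir1a-2 in replicate 1 exceeded that in replicate 2 by 1.75-fold (1.29 to 2.41; adjusted p = 0.000686, exact binomial test). Mir133b, with 2 and 10 counts, passed narrowly in the other direction, 4.36-fold higher in replicate 2 with an interval of 1.11 to 49.0 (adjusted p = 0.0457, exact binomial test), and missed the threshold with DESeq2 size factors and when genes with 1 or more counts were tested. Mir206 had a ratio of 2.43 (1.00 to 7.24) towards replicate 2 (adjusted p = 0.0828, exact binomial test). Mir133a-1 and Mir1a-1 had log2 ratios of -1.71 and -0.12 with intervals that included equality. The 8 tested members, including those of skeletal muscle, had a median log2 ratio of 0.23, against -0.01 over all 359 tested genes.

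**Figure D4:**
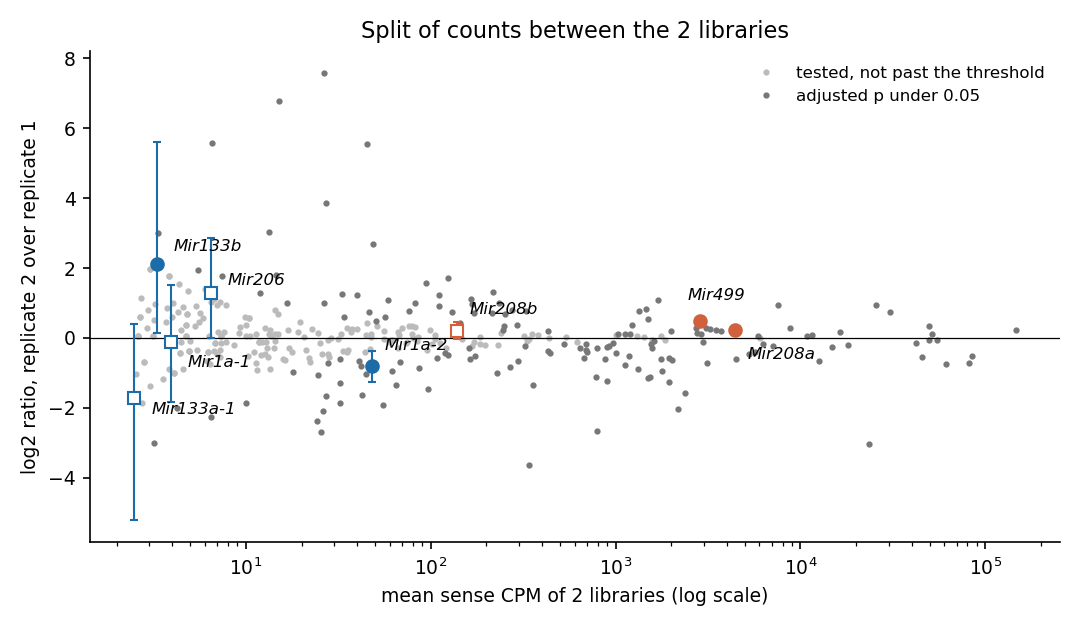
Log2 ratio of replicate 2 over replicate 1 (TMM sizes) against mean sense-strand CPM (log axis) for the 359 tested genes, with 8 members and their exact 95% intervals; filled circles passed an adjusted p of 0.05, open squares did not, orange marks myosin-intron genes and blue the other families. Mir208a and Mir499 lie at 0.24 and 0.48 with intervals no wider than their symbols, while the members below 10 CPM have wide intervals.

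The scaling between the libraries bears on these directions. Against library size alone, TMM lowers the log2 size ratio of replicate 1 over replicate 2 by 0.17 and DESeq2 size factors by 0.23. The log2 ratios of genes, replicate 2 over replicate 1, fall accordingly. Members with few counts shift less, because of the prior count. With library size alone 6 of 8 members passed, Mir208b and Mir206 in addition, and 103 genes were higher in replicate 2 against 67 in replicate 1, where TMM gave 72 and 87. With DESeq2 size factors 3 members passed, and 60 genes were higher in replicate 2 against 96. Mir208a and Mir499 were higher in replicate 2 and Mir1a-2 in replicate 1 under TMM, library size alone and DESeq2 size factors, whereas Mir1a-1 changed sign with library size alone.

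Changes of the ratio between 2 members do not depend on any scaling. Of 28 pairs among the 8 members with 10 or more counts, 8 changed between the libraries (Fisher's exact test, two-sided, Benjamini-Hochberg over the 28 pairs). Pairs of other genes were not tested, so no share over all pairs stands beside this number. With 44.3% of all tested genes differing between the libraries, changed ratios are not shown to be particular to the members. Pairs that share a gene are not independent. The ratio of Mir208a to Mir499 in replicate 2 was 0.848 times that in replicate 1 (0.807 to 0.890; adjusted p = 8.21e-10, Fisher's exact test). For Mir208a to Mir208b the change was 1.02 (0.856 to 1.22; adjusted p = 0.825, Fisher's exact test), with a lower bound close to the 0.848 seen against Mir499. For Mir208b to Mir499 it was 0.829 (0.693 to 0.992; adjusted p = 0.100, Fisher's exact test). The counts of Mir499 thus exceeded those of replicate 1 by a larger factor than the counts of Mir208a did.

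Pairs with Mir1a-2 made up 5 of the 8. The ratio of Mir208a to Mir1a-2 was 2.08 times higher (1.52 to 2.85; adjusted p = 1.26e-05, Fisher's exact test) in replicate 2, and that of Mir499 to Mir1a-2 2.45 times (1.80 to 3.37; adjusted p = 3.54e-08, Fisher's exact test). Mir1a-2 also changed against Mir208b, Mir133b and Mir206. The last 2 pairs, Mir133a-1 against Mir133b and against Mir206, rest on counts of 2 to 17. Since Mir1a-2, Mir133a-1 and Mir133b share recurring runs with other hairpins, their ratios describe only the reads that could be placed.

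**Figure D5:**
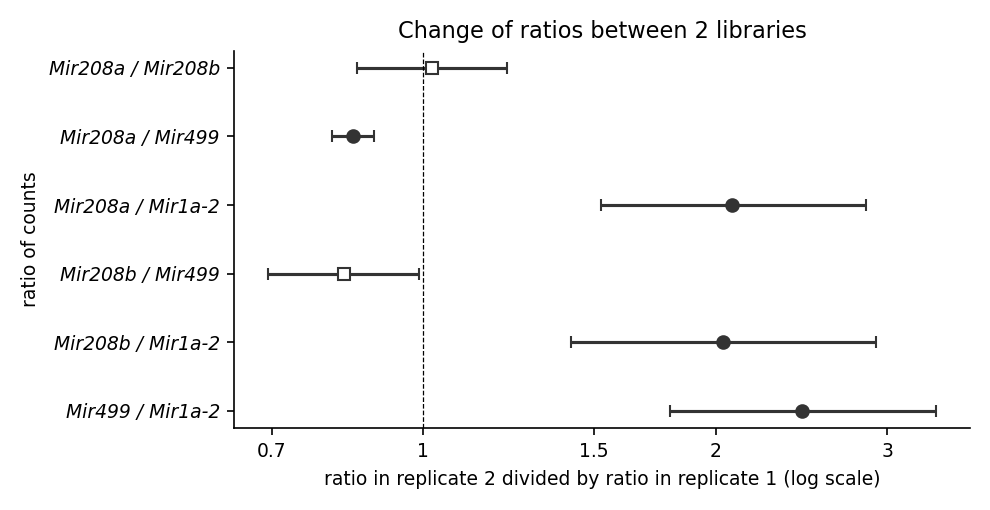
Ratio of 2 members' counts in replicate 2 divided by the same ratio in replicate 1 (log axis), with exact 95% intervals, for the 6 pairs among the 4 members with 50 or more counts; filled circles passed an adjusted p of 0.05 over 28 pairs. Mir208a to Mir208b lies at 1.02, Mir208a to Mir499 at 0.848, and the 3 ratios over Mir1a-2 between 2.03 and 2.45.

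Other miRNA genes linked to heart muscle or its remodelling were taken as a list of 27 symbols, 26 of them measured. Of these, 24 were detected, and all 24 were tested: replicate 2 was higher for 7 and replicate 1 for 10, 7 did not pass, and the median log2 ratio was -0.01. The 17 called are 70.8% of the 24 tested, beside 44.3% of all tested genes; the list holds abundant genes, and this difference in share was not tested. The most abundant were Mir378a, in a gene of mitochondrial metabolism, with 125675 and 166328 CPM, Mir23a with 47760 and 51598 CPM, Mir30d with 14367 and 18179 CPM, and Mir22, known from hypertrophy, with 14790 and 10516 CPM. Mir133c, the remaining symbol of the miR-133 family, had 0 counts in both libraries. The list thus held genes higher in replicate 1 and genes higher in replicate 2, as did the members.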

How the data were processed

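Small RNA was sequenced from 2 heart samples. The deposited files hold raw counts of reads at each miRNA gene (mm10, GENCODE M21, per the notes deposited with them). Their 3 columns, read from the values, ignore strand, take the gene's own strand (sense) and take the other one. The aligner and the counting program were not given in the sources used here. Mice of this cross carry a second parental genome, and its effect on mapping to mm10 was not tested.

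Sense counts were used. CPM took the sum over gene rows as library size, leaving out the 4 rows that name no gene (63.0% and 64.6% of reads in replicates 1 and 2). Scaling used TMM in edgeR 4.0.16 (prior count 0.5), with DESeq2 1.42.0 size factors as an alternative. Exact tests and intervals used scipy 1.17.1, and the test was checked on simulated data that hold counting error alone. That check says nothing of differences between animals or libraries. A genome was not used, so places were counted over the 2202 annotated hairpins. All 10 members were named, with their neighbours by level, miRNA genes in Myh genes and up to 4 of the listed heart genes. Members and lists were chosen with earlier results of these data known.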

Additional observations from a re-analysis of the deposited data

How the results depend on the processing

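Most values kept their direction, side of the threshold or size. Among sums, ratios and counts, 38 of 45 alternative values did, and among log2 ratios of single members 46 of 51. Part of this tally was fixed in advance. Sums and ratios were kept if they moved by less than the SD, which leaving out either library always meets. Counts without regard to strand equal the sense counts of the myosin-intron genes, so ratios among these could not move. TMM without the red blood cell markers could hardly differ from TMM with them. For detected members, 4 beside 6 also counted as kept. The sum of the myosin-intron genes was 10254 CPM with counts without regard to strand and 2676 CPM with library size over all rows; that of the miR-1, miR-133 and miR-206 genes was 23.8 CPM and 23.9 CPM. Without length, Mir208a stood 32.0 times above Mir208b. Pairs of members whose ratio changed fell from 8 to 5 of 6 pairs with 50 or more counts, to 6 of 45 with all members that had a count, and to 1 of 21 without regard to strand, where Mir1a-2 has no count. Detected members numbered 7 at a limit of 1 CPM, 4 at 5 or 10 CPM or with library size over all rows, and 5 without regard to strand, beside 6. With library size alone the log2 ratio of Mir1a-1 was 0.037 instead of -0.12. Leaving out either library left 1 library, so that no test between libraries could be run; the sum of the myosin-intron genes was then 6143 or 8701 CPM. No paired analysis was possible because there is 1 group. Counts of 2 to 17 limit what can be said of Mir1a-1, Mir133 genes and Mir206.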
